A study of Mus musculus with 2 samples.

Results

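Basic helix-loop-helix (bHLH) transcription factors that drive neuron formation were followed across the cells of the embryonic mouse retina. The 9 genes *Atoh7*, *Neurog2*, *Olig2*, *Neurod1*, *Neurod2*, *Neurod4*, *Neurod6*, *Bhlhe22* and *Ptf1a* were taken by symbol from the 28692 genes of the count matrices, and each symbol matched 1 row. Retinas at E14.5 carried a bacterial artificial chromosome in which EGFP stands under the control regions of *Lhx4* (strain Tg(Lhx4::EGFP)KN199Gsat/Mmucd, used as heterozygotes). Retinas of the GFP-positive embryos of 2 litters went into 1 sorting suspension, so that cells of both groups came from carriers of the transgene and were parted by GFP signal. The samples, GFP+ cells (labelled as cone photoreceptors) and the GFP- cells (labelled as retinal cells), gave 1 droplet library each, in which a unique molecular identifier (UMI) marks each captured transcript. With 1 library per gate there was no replicate and no test was made. All intervals are 95% exact intervals in parentheses and cover counting error only, and differences between the pooled animals cannot be seen.

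Factors of this family form dimers with the widely expressed E proteins and bind the E-box, a 6-base sequence CANNTG. In the developing retina *Atoh7*, *Neurog2* and *Olig2* are known from progenitors that are about to leave the cell cycle, and *Atoh7* is needed for retinal ganglion cells (RGCs). *Neurod1* and *Neurod4* are known from photoreceptor and amacrine precursors, *Ptf1a* directs horizontal and amacrine cells, and *Bhlhe22* and *Neurod6* are known from amacrine subtypes.

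The E-box letters were looked for in 300-base windows at the RefSeq start of each gene (GRCm38.p6), from 250 bases before to 50 bases after it, and a window was found for 8 of the 9 members. The windows of 5 members held CANNTG, which reads the same on both strands in this form. For *Atoh7*, *Neurod1* and *Neurod4*, whose transcripts mark the series of groups from *Otx2*/*Crx* cells to cone-marker cells described below, 30 bases around the match are shown 5′ to 3′ on the gene's strand, with the hexamer in capitals.
Atoh7, chr10:63099555-63099584, plus strand: accaggccactcCAGATGgtgtgttagtta
Atoh7, chr10:63099706-63099735, plus strand: gggacgcccgccCACCTGccacCACCTGtt
Neurod1, chr2:79456857-79456886, minus strand: gggaagacCATATGgcgcatgccggggagg
Neurod4, chr10:130280117-130280146, minus strand: gacatagaaaacCAGCTGtggtggaggcac
The CAGATG of *Atoh7* began 218 bases before the RefSeq start and the pair of CACCTG began 67 and 57 bases before it, the latter inside the Gencode M21 transcript, which starts further upstream. The CATATG of *Neurod1* began 242 bases before the start, and the CAGCTG of *Neurod4* began at base 5 after the second of its RefSeq starts. *Neurod2* and *Neurod6* held other matches, and *Neurog2*, *Olig2* and *Ptf1a* held none in these windows. Of all 32851 windows of the table, 72.3% held a CANNTG, 17.2% held CAGATG or its complement, 20.2% held CACCTG or its complement, 16.3% held CAGCTG and 3.91% held CATATG.

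After the study's filters (250 to 3500 genes and a mitochondrial fraction under 0.25), 3689 GFP+ cells with 15503658 UMIs and 3389 GFP- cells with 30094636 UMIs were kept, with medians of 3894 and 8848 UMIs per cell. The upper limit on genes removed 39 GFP+ and 1055 GFP- cells. The libraries shared 20 cell barcodes. Levels are UMIs summed over cells per 1000000 UMIs (CPM). Shares of cells with a UMI were taken after each cell was thinned to 3200 UMIs, which left out 579 GFP+ and 28 GFP- shallower cells. Transcripts of red blood cell, lens, pigment epithelium, mesenchyme and optic stalk markers summed to between 0 and 7.55 CPM in either gate. Markers of vessels reached 64.0 CPM in the GFP- library and 9.48 CPM in the GFP+ library, microglial markers 9.84 and 27.1 CPM, and rod markers 0.631 and 31.5 CPM. Their part in the values below was not tested.

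The gates differed most in *Neurod1* and *Neurod4*, which were higher in GFP+ cells, and in *Neurog2* and *Ptf1a*, which were higher in GFP- cells. *Neurod1* stood at 1284 CPM (1267 to 1302) in the GFP+ library and at 108 CPM (104 to 112) in the GFP- library, 11.9-fold higher (11.5 to 12.4). *Neurod4* stood at 488 CPM (477 to 499) against 24.6 CPM (22.8 to 26.4), 19.9-fold higher (18.4 to 21.5). Both are factors of the NeuroD group, and the GFP+ gate held most of their transcripts.

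In the other direction, *Neurog2* stood at 8.97 CPM (7.54 to 10.6) in the GFP+ library and 250 CPM (244 to 255) in the GFP- library, 27.8-fold lower (23.5 to 33.2). *Ptf1a* stood at 5.87 CPM (4.73 to 7.21) against 63.3 CPM (60.5 to 66.2), 10.8-fold lower (8.74 to 13.5). The 91 *Ptf1a* UMIs of the GFP+ library came from 18 cells, of which 4 were cone-marker cells.

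*Atoh7* and *Olig2* differed less. *Atoh7* stood at 60.0 CPM (56.2 to 64.0) in the GFP+ library and 131 CPM (127 to 135) in the GFP- library, 2.18-fold lower (2.03 to 2.34). *Olig2* stood at 10.1 CPM (8.55 to 11.8) and 18.8 CPM (17.3 to 20.4), 1.87-fold lower (1.56 to 2.24). *Bhlhe22*, with 310 UMIs (17.8 to 22.3 CPM) and 660 UMIs (20.3 to 23.7 CPM), gave a ratio of 0.912 (0.794 to 1.05) that counting error did not separate from equal levels.

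*Neurod2* had 1 UMI in the GFP+ library and 0 in the GFP- library, where 3 counts would be 0.0997 CPM. *Neurod6* had 1 UMI in the GFP- library and 0 in the GFP+ library, where 3 counts would be 0.194 CPM. Neither was described further, so that 7 members are followed below.

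The median gene of 15236 with at least 10 UMIs was itself higher in the GFP+ library, by 0.30 on the log2 scale. Relative to it, 2 of the 7 members were at least 2-fold higher (*Neurod1*, *Neurod4*), where 16.3% of all genes were. At least 2-fold lower were 4 of the 7 (*Atoh7*, *Neurog2*, *Olig2*, *Ptf1a*), where 20.4% of all genes were. *Olig2*, at a log2 difference from the median gene of -1.19, was the member nearest to the limit and was within it when the upper limit on genes was lifted, which left 3 members lower.

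**Figure D1:**
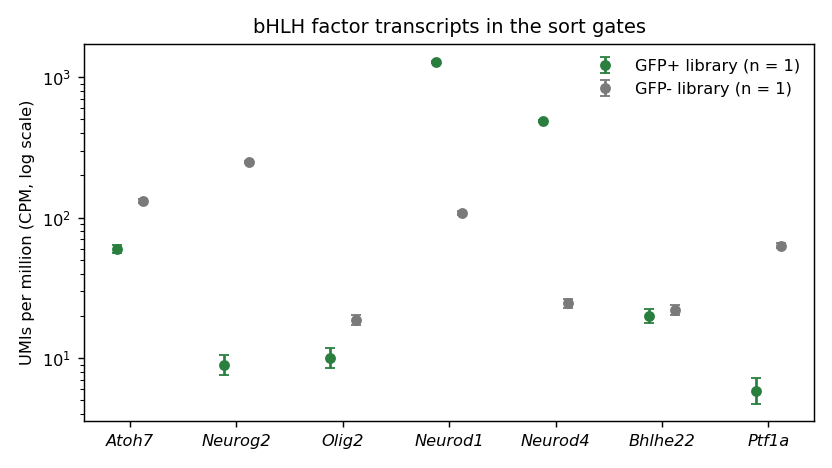
Level of the 7 factors in each sort gate, in CPM on a log axis, with points for the GFP+ and GFP- library and bars for 95% exact Poisson intervals. *Neurod1* and *Neurod4* lie higher in the GFP+ library, *Atoh7*, *Neurog2*, *Olig2* and *Ptf1a* lie lower, and the intervals of *Bhlhe22* overlap.

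To place the factors in lineages, cells were grouped by UMIs of markers among which no member stands. The groups are ranges of marker UMIs, not cell types. Cone-marker cells (at least 3 UMIs from at least 2 of *Gngt2*, *Gnb3*, *Pdc*, *Gnat2* and *Thrb*) made up 3581 of the GFP+ cells, a share of 97.1%, and 61 of the GFP- cells. The label of the GFP+ gate therefore matched its markers. *Otx2*/*Crx* cells (at least 2 UMIs of these photoreceptor precursor genes, below the limits for cone, RGC or amacrine markers) numbered 66 and 325. Among GFP- cells there were 1808 progenitor-marker cells (such as *Sfrp2* and *Fgf15*). A further 297 neurogenic-marker cells (such as *Dll1*, *Dll3* and *Gadd45a*) had at least 3 UMIs of cell-cycle genes and 115 had fewer. Neither set took in cells that met the *Otx2*/*Crx* rule. RGC-marker cells were early (202) or, with UMIs of *Rbpms*, *Sncg*, *Nefl* or *Nefm*, late (297). Cells with *Tfap2a* and *Tfap2b* UMIs numbered 101 with horizontal cell markers (*Lhx1*, *Onecut1*, *Onecut2*) and 7 without. At the lower limit of their marker count lay 53 of the 325 *Otx2*/*Crx* cells, 51 of the 297 neurogenic-marker cells and 25 of the 202 early RGC-marker cells.

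The groups overlapped in the markers of other classes. The median GFP- *Otx2*/*Crx* cell had 24.8 UMIs of neurogenic markers per 10000, against 13.2 and 26.9 in the neurogenic-marker cells with and without cell-cycle UMIs, and the median early RGC-marker cell had 18.4. Rod markers were at a median of 0 in every group.

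In GFP- cells, with groups set as above, *Otx2*/*Crx* cells held the highest levels of *Neurog2*, *Olig2*, *Atoh7* and *Bhlhe22*. The lead depended on the grouping. With both libraries together and groups set on thinned cells, cycling neurogenic-marker cells led for *Atoh7* (502 CPM), *Neurog2* (1445 CPM) and *Bhlhe22* (130 CPM). With a marker limit of 5 UMIs, which did not apply to the *Otx2*/*Crx* rule, they led for *Bhlhe22* (84.5 CPM). *Neurog2*, a proneural factor that starts neuron formation, stood at 1616 CPM (1568 to 1665) in GFP- *Otx2*/*Crx* cells. It stood at 697 CPM (665 to 730) in neurogenic-marker cells with cell-cycle UMIs, 227 CPM (196 to 262) in those without, and 55.2 CPM (51.7 to 58.9) in progenitor-marker cells. It was at 72.2 CPM (60.6 to 85.5) in early and 30.8 CPM (99 UMIs) in late RGC-marker cells. In cone-marker cells of the GFP+ library it was at 2.16 CPM (1.48 to 3.05). In GFP- cells alone the gap depended on how cells were assigned, though the order did not turn. With groups set on the thinned cells, *Neurog2* stood at 1496 CPM in the *Otx2*/*Crx* cells and 1450 CPM in the cycling neurogenic-marker cells. A *Neurog2* UMI was found in 11.8% (10.4 to 13.4) of thinned progenitor-marker cells and 11.9% (6.29 to 19.8) of *Tfap2*-marker cells with horizontal markers. Late RGC-marker cells had one in 4.38% (2.35 to 7.37). Whether these shares are expression was not tested. The 213 progenitor-marker cells with such a UMI are counted among the *Neurog2* cells below.

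*Olig2*, which marks progenitors whose last divisions yield cones and horizontal cells, was the member most concentrated in the *Otx2*/*Crx* cells. It stood at 177 CPM (161 to 193) there, with 82.5% of all its GFP- UMIs. Cells with neurogenic markers counted as *Otx2*/*Crx* cells where they met that rule. How far this order of rules shapes the share was not tested. The next group was the neurogenic-marker cells without cell-cycle UMIs at 20.5 CPM (11.9 to 32.8), whose interval overlapped that of the cycling ones at 15.3 CPM (10.9 to 20.9). Progenitor-marker cells had 11 UMIs, or 0.658 CPM (0.329 to 1.18). After thinning, 31.5% (26.5 to 36.8) of the *Otx2*/*Crx* cells had an *Olig2* UMI, against 2 of 297 late RGC-marker cells (0.673%), whose kind is not known to express it. The unthinned medians of these groups were 7789 and 11500 UMIs.

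*Atoh7* stood at 572 CPM (543 to 602) in *Otx2*/*Crx* cells, and at 375 CPM (335 to 420), 325 CPM (299 to 351) and 315 CPM (294 to 338) in neurogenic-marker cells without cell-cycle UMIs, early RGC-marker cells and cycling neurogenic-marker cells. The intervals of these last 3 overlapped, but with groups set on thinned cells the cycling neurogenic-marker cells were at 504 CPM and the early RGC-marker cells at 281 CPM. It was near absent from *Tfap2*-marker cells with horizontal markers, with 3 UMIs or 4.48 CPM (0.925 to 13.1), and in none of the 101 thinned cells of that group (0 to 3.59%).

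*Bhlhe22*, a factor of the Olig group, stood at 90.1 CPM (79.1 to 102) in *Otx2*/*Crx* cells and 63.4 CPM (54.0 to 73.9) in cycling neurogenic-marker cells. It stood at 53.6 CPM (43.7 to 65.2) in early RGC-marker cells, which counting error did not separate from the latter. With groups set on thinned cells the order turned: *Bhlhe22* was at 70.2 CPM in the GFP- *Otx2*/*Crx* cells and at 130 CPM in the cycling neurogenic-marker cells of both libraries together.

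Relative to progenitor-marker cells, 6 of the 7 members were at least 2-fold higher in *Otx2*/*Crx* cells, where 8.49% of 13352 genes were. The exception was *Ptf1a* at 14.4 CPM in both groups, a ratio of 0.998 (0.689 to 1.41). In cycling neurogenic-marker cells all 7 members were at least 2-fold higher, where 4.60% of 13279 genes were. Ratios ran from 3.47 (2.78 to 4.32) for *Ptf1a* to 23.2 (11.6 to 50.2) for *Olig2* in the second comparison. Progenitor-marker cells were those left after *Otx2*/*Crx* and neurogenic-marker cells had been set apart, here and for the lists below. Choosing cells by *Dll1*, *Dll3* and the other neurogenic markers may itself pick cells with these factors. How far the grouping shapes these counts was not tested.

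**Figure D2:**
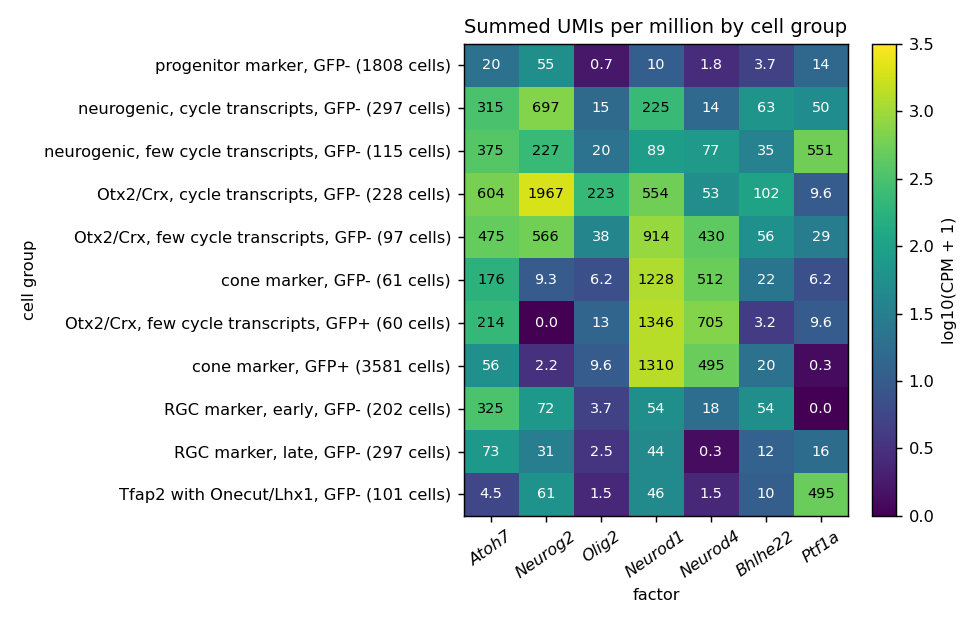
Summed CPM of the 7 factors in sets of cells with marker UMIs (rows, with the gate and number of cells), coloured by log10(CPM + 1), with the CPM written in each cell of the grid. *Neurog2* and *Olig2* are highest in *Otx2*/*Crx* cells with cell-cycle transcripts (1967 and 223 CPM), *Neurod1* and *Neurod4* are high from *Otx2*/*Crx* cells with few cell-cycle transcripts to cone-marker cells, and *Ptf1a* is, among the rows drawn, highest in neurogenic-marker cells with few such transcripts (551 CPM) and in *Tfap2*-marker cells (495 CPM), an order that turns with groups set on thinned cells.

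Splitting the GFP- *Otx2*/*Crx* cells by 3 UMIs of 14 cell-cycle genes separated the factors. The split was made on unthinned cells and after the group levels had been seen, and the 228 cells with cell-cycle UMIs were deeper (median 8530 UMIs) than the 97 without (6573). *Neurog2* was at 1967 CPM (1905 to 2029) with and 566 CPM (510 to 627) without cell-cycle UMIs, and *Olig2* at 223 CPM (202 to 245) and 37.8 CPM (24.5 to 55.9). *Atoh7* differed less, at 604 CPM (570 to 639) and 475 CPM (424 to 531). *Neurod1* was at 554 CPM (522 to 588) with and 914 CPM (843 to 990) without, and *Neurod4* at 53.0 CPM (43.4 to 64.2) and 430 CPM (381 to 483). *Neurog2* and *Olig2* were thus higher in the cells with cell-cycle transcripts and the NeuroD factors in those without.

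The 60 GFP+ *Otx2*/*Crx* cells with few cell-cycle UMIs held no *Neurog2* UMI, where 3 counts would be 9.57 CPM. They held *Atoh7* at 214 CPM (166 to 271), *Neurod1* at 1346 CPM (1221 to 1481) and *Neurod4* at 705 CPM (615 to 804). Against GFP- *Otx2*/*Crx* cells with few cell-cycle UMIs, *Neurod1* and *Neurod4* were higher and *Atoh7* lower, each with intervals that did not overlap. These groups were not matched for other markers. Over all *Otx2*/*Crx* cells, the median GFP+ cell had more cone marker and fewer neurogenic marker UMIs, relative to depth, than the median GFP- cell. Counting error aside, these are cells of different libraries and depths (median 5339 against 6573 UMIs). In thinned cells with *Otx2* and *Crx* UMIs and 1 to 2 cone marker UMIs, binned as below, the intervals of the gates overlapped. *Atoh7* was found in 47.6% of 82 GFP+ and 48.6% of 37 GFP- cells. *Neurod1* was at 1349 and 1258 CPM, and *Neurod4* at 736 CPM (635 to 847) and 557 CPM (431 to 709). How far marker differences shape the gate differences was not tested.

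In cone-marker cells of the GFP+ library, 5 of the 7 members were at least 2-fold lower than in GFP- *Otx2*/*Crx* cells, where 16.7% of 13592 genes were, after centring on a median gene that was higher by 0.37 on the log2 scale. *Neurog2* was 749-fold lower (530 to 1096), *Olig2* 18.4-fold lower (15.2 to 22.4), *Atoh7* 10.1-fold lower and *Bhlhe22* 4.53-fold lower (3.80 to 5.39). *Ptf1a*, low in both, was the fifth. *Neurod4* was 3.36-fold higher (3.03 to 3.73) and *Neurod1* 2.03-fold higher (1.94 to 2.14), the latter under 2-fold once centred. This comparison is between libraries as well as between groups. Within the GFP- library, the 61 cone-marker cells held *Neurog2* at 9.26 CPM (1.91 to 27.1), *Olig2* at 6.17 CPM (0.747 to 22.3), *Bhlhe22* at 21.6 CPM (8.68 to 44.5) and *Neurod4* at 512 CPM (437 to 596), each on the same side of the *Otx2*/*Crx* cells as in the GFP+ library.

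Between the cone-marker cells of the GFP- and GFP+ libraries, the NeuroD factors overlapped in their intervals. *Neurod1* was at 1228 CPM (1110 to 1355) and 1310 CPM (1292 to 1329), and *Neurod4* in the GFP+ cells at 495 CPM (483 to 506). *Atoh7* was at 176 CPM (133 to 228) against 56.5 CPM (52.7 to 60.4), higher in the GFP- cells. The GFP- cells of this group also held fewer cone marker UMIs, at a median of 18.1 per 10000 against 41.6.

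*Atoh7* followed the amount of cone marker transcript. Thinned GFP+ cells with at least 2 *Otx2* and *Crx* UMIs were binned by the summed UMIs of the 5 cone markers, a split chosen after seeing the data. An *Atoh7* UMI was found in 47.6% (36.4 to 58.9) of 82 cells with 1 to 2 cone marker UMIs and in 30.5% (24.3 to 37.4) of 203 cells with 3 to 5. It was found in 16.1% (13.6 to 18.9) of 763 cells with 6 to 10, in 9.98% (8.55 to 11.5) of 1604 cells with 11 to 20, and in 8.56% (5.93 to 11.9) of 374 cells with 21 to 40. The intervals of the first pair and of the last pair of these bins overlapped, those of the bins between did not, and the bin with 0 cone marker UMIs had only 18 cells. *Neurod1* stayed between 95.3% and 97.6% over the same bins. *Neurod4* also fell, though less, from 84.1% (74.4 to 91.3) in the bin of 1 to 2 to 70.9% (66.0 to 75.4) in that of 21 to 40. These shares overlapped in their intervals, but its levels, 736 CPM (635 to 847) and 440 CPM (404 to 480), did not.

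*Olig2* remained detectable in GFP+ cone-marker cells where *Neurog2* and *Ptf1a* hardly did. Of 3022 thinned cells, 79 had an *Olig2* UMI (2.61%, 2.07 to 3.25), 12 a *Neurog2* UMI (0.397%, 0.205 to 0.693) and 1 a *Ptf1a* UMI (0.0331%). In the same cells *Bhlhe22* was found in 171 (5.66%, 4.86 to 6.54). *Ptf1a*, which cones are not known to express, gives the background of free transcripts in this library only for a gene as scarce in the suspension as itself.

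**Figure D3:**
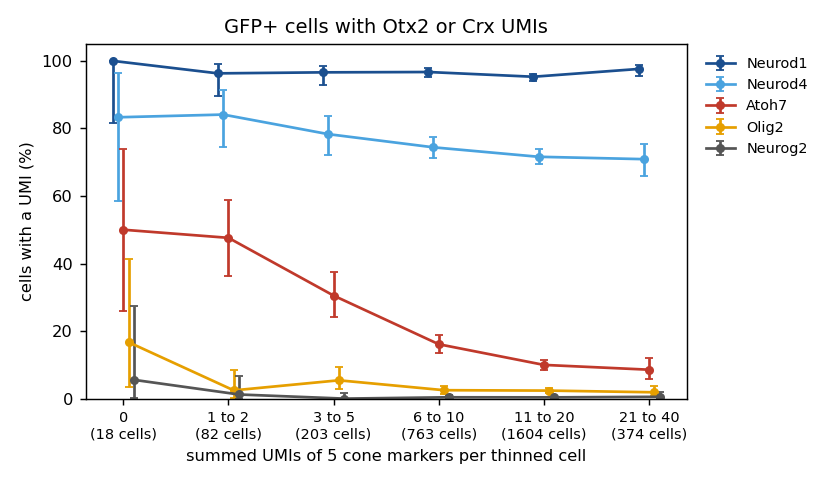
Share of thinned GFP+ cells with at least 2 *Otx2* and *Crx* UMIs that had a UMI of each factor, by summed UMIs of 5 cone markers, with 95% exact Clopper-Pearson intervals. *Atoh7* goes from 47.6% at 1 to 2 cone marker UMIs to 8.56% at 21 to 40, while *Neurod1* stays above 95%.

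Among RGC-marker cells, *Atoh7*, *Bhlhe22*, *Neurog2* and *Neurod4* were lower in the late than in the early cells. *Atoh7* was at 73.4 CPM (64.3 to 83.4) in late against 325 CPM in early cells, 4.42-fold lower (3.80 to 5.16). *Bhlhe22* was at 11.5 CPM (8.10 to 15.9) against 53.6 CPM, 4.66-fold lower (3.17 to 6.99). *Neurog2* was 2.35-fold lower (1.80 to 3.07), and *Neurod4* had 1 UMI in late and 33 in early cells. These 4 of 7 members were at least 2-fold lower, where 7.06% of 11350 genes were. *Ptf1a* went the other way, with 53 UMIs (16.5 CPM, 12.3 to 21.6) in late and 0 in early cells. The 53 UMIs came from only 14 of the 297 late cells, and 3.03% (1.39 to 5.67) of the thinned late cells had one. *Neurod1* was at 43.5 CPM (36.6 to 51.4) and 54.2 CPM (44.2 to 65.8), with a ratio of 0.804 (0.618 to 1.05). Without the upper limit on genes the late group grew from 297 to 845 cells and its *Atoh7* level was 44.1 CPM.

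*Ptf1a* was set apart from the other members. It stood at 495 CPM (443 to 551) in *Tfap2*-marker cells with horizontal markers, in 76.2% (66.7 to 84.1) of the 101 thinned cells. It stood at 551 CPM (502 to 604) in neurogenic-marker cells without cell-cycle UMIs. With groups set on thinned cells these groups were at 456 and 303 CPM, and the cells that met no marker rule at 352 CPM in place of 556 CPM. Early RGC-marker cells held 0 *Ptf1a* UMIs in 202 cells, where 3 counts would be 1.59 CPM. The 142 GFP- cells that met no marker rule held it at 556 CPM (511 to 605), in 73.4% (65.2 to 80.5) of the thinned cells, and the rule of UMIs from both *Tfap2a* and *Tfap2b* left many of these out. With a UMI limit that either gene alone could meet, chosen after seeing the data, 189 cells were in the horizontal-marker group and 33 in the amacrine one, and *Ptf1a* was at 563 CPM in the former. *Cldn5*, a vessel marker, was among the 3 genes most like *Ptf1a* across groups, and vessel marker UMIs were at a median of 1.36 per 10000 in the cells that met no rule, and 0 in the horizontal-marker cells.

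Detection of the factors in the same cell was counted in thinned GFP- cells. *Olig2* cells were nearly a subset of *Neurog2* cells: 118 of 133 (88.7%, 82.1 to 93.5) also had a *Neurog2* UMI, against 18.2% (16.9 to 19.6) of the cells without *Olig2*. Another random thinning gave 81.2%, and unthinned cells 85.6%. *Atoh7* was found in 74.4% (66.2 to 81.6) of the *Olig2* cells and *Neurod1* in 70.7% (62.2 to 78.2). Of the 706 *Neurog2* cells, in turn, 16.7% (14.0 to 19.7) had *Olig2*. The subset was particular to the GFP- gate. Of 80 thinned GFP+ cells with *Olig2*, 37 had *Neurod1* and *Neurod4* as their only other members and 19 had *Neurod1* alone beside it.

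Since a group that is rich in several factors gives shared detection by itself, the count was repeated within the 324 thinned *Otx2*/*Crx* cells. There *Olig2* was found in 43.4% (36.9 to 50.1) of 228 cells with *Neurog2* and in 3 of 96 cells without it (3.12%, 0.649 to 8.86). *Neurod4* had the opposite pattern, at 12.3% (8.32 to 17.3) with *Neurog2* and 60.4% (49.9 to 70.3) without. *Atoh7* was found in 81.1% (75.4 to 86.0) with and 46.9% (36.6 to 57.3) without *Neurog2*. *Neurod1* was found in 73.7% (67.5 to 79.3) and 82.3% (73.2 to 89.3), which overlapped.

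Among the NeuroD factors, 83 of the 86 *Neurod4* cells in this group had *Neurod1* (96.5%, 90.1 to 99.3), against 68.9% (62.6 to 74.7) of the cells without *Neurod4*. *Neurod4* was found in 33.6% (27.7 to 39.9) of the *Neurod1* cells. Within the 228 *Otx2*/*Crx* cells with cell-cycle UMIs, all 91 *Olig2* cells had *Neurog2* (96.0% to 100%), against 78.8% (71.0 to 85.3) of the others. Even there, *Neurod4* was found in 7.54% (4.28 to 12.1) of the *Neurog2* cells and in 37.9% (20.7 to 57.7) of 29 cells without it.

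**Figure D4:**
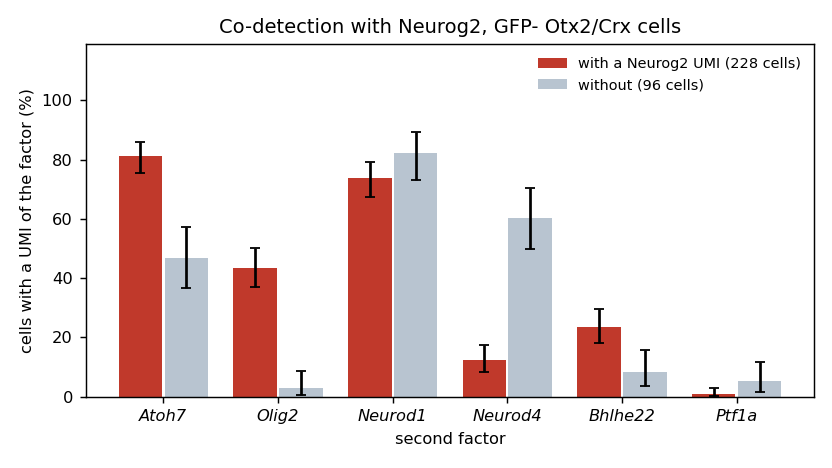
Share of thinned GFP- *Otx2*/*Crx* cells with a UMI of each other factor, in 228 cells with and 96 cells without a *Neurog2* UMI, with 95% exact Clopper-Pearson intervals. *Olig2*, *Atoh7* and *Bhlhe22* are found more often with *Neurog2*, and *Neurod4* less often (12.3% against 60.4%).

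In cycling neurogenic-marker cells, left after *Otx2*/*Crx* cells had been set apart, *Olig2* was rare and *Neurod1* went with *Neurog2*. *Neurod1* was found in 50.3% (42.2 to 58.4) of 157 cells with *Neurog2* and 18.4% (12.3 to 25.9) of 136 cells without. *Atoh7* did not separate them, at 41.4% (33.6 to 49.5) and 45.6% (37.0 to 54.3).

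The factors found beside *Ptf1a* differed between groups. In neurogenic-marker cells without cell-cycle UMIs, *Neurod4* was found in 33.8% (22.6 to 46.6) of 65 *Ptf1a* cells and 10.4% (3.47 to 22.7) of 48 cells without, intervals that just overlapped, and *Neurog2* in 12.3% (5.47 to 22.8) and 43.8% (29.5 to 58.8). *Atoh7* was found in 34 of 65 (52.3%, 39.5 to 64.9) and 24 of 48 (35.2% to 64.8%). In progenitor-marker cells *Neurod4* was found in 6 of 37 *Ptf1a* cells (16.2%, 6.19 to 32.0) and in 6 of 1761 others (0.341%). In *Tfap2*-marker cells with horizontal markers, in contrast, 1 of 77 *Ptf1a* cells had *Neurod4* and 11 had *Neurog2*. Over all GFP- cells *Ptf1a* cells had *Atoh7* in 20.4% of 339, against 20.5% (19.1 to 22.0) of the others.

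The number of members found per cell followed the groups. In GFP- *Otx2*/*Crx* cells 65.7% had 3 or more of the 9 members, and in progenitor-marker cells 81.3% had none. In GFP+ cells the commonest set was *Neurod1* with *Neurod4* and no other member, in 1676 of 3110 thinned cells (53.9%), followed by *Neurod1* alone (20.5%) and by *Atoh7*, *Neurod1* and *Neurod4* together (9.55%). In GFP- cells the commonest set, after cells with none, was *Neurog2* alone (7.47%).

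Cell-cycle transcripts set the factors in an order. Of thinned GFP- cells, 56.1% (54.4 to 57.8) had at least 3 UMIs of the 14 cell-cycle genes. The share was 78.9% (71.0 to 85.5) of *Olig2* cells and 67.4% (63.8 to 70.9) of *Neurog2* cells, whose intervals did not overlap, and 58.0% (50.5 to 65.3) of *Bhlhe22* cells. It was 48.1% (43.9 to 52.3) of *Neurod1* and 45.9% (42.1 to 49.7) of *Atoh7* cells, and 9.38% (5.65 to 14.4) of *Neurod4* and 4.72% (2.72 to 7.55) of *Ptf1a* cells. Within each of these last pairs the intervals overlapped.

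*Neurod1* cells and *Atoh7* cells differed by whether they also had *Neurog2*. Of *Neurod1* cells that also had *Neurog2*, 75.7% (70.4 to 80.5) had cell-cycle UMIs, against 17.8% (13.4 to 22.9) of those without. Of *Atoh7* cells without *Neurog2*, 27.5% (23.2 to 32.2) did, and of cells with both, 71.3% (65.7 to 76.4). In *Ptf1a* cells the numbers were too few to part them, at 2 of 50 with *Neurog2* (0.488% to 13.7%) and 14 of 289 without (4.84%, 2.67 to 7.99).

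**Figure D5:**
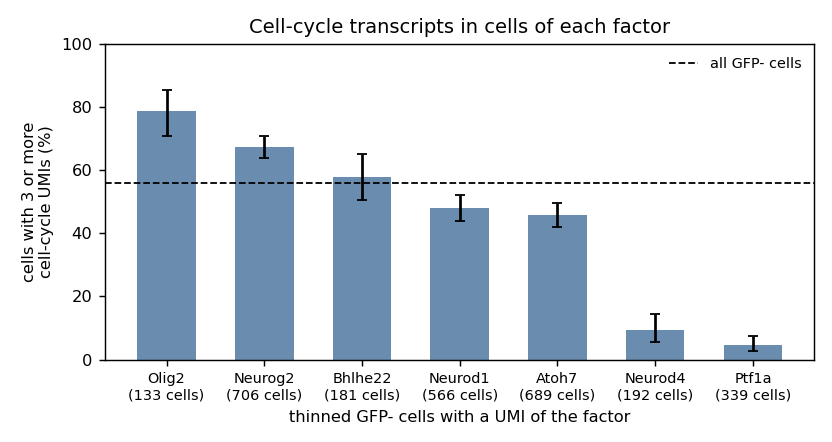
Share of thinned GFP- cells with at least 3 UMIs of 14 cell-cycle genes among cells with a UMI of each factor, with 95% exact Clopper-Pearson intervals. The dashed line marks all thinned GFP- cells (56.1%), with *Olig2* (78.9%) and *Neurog2* (67.4%) above it and *Neurod4* (9.38%) and *Ptf1a* (4.72%) far below.

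Other genes of the pathway were read from lists. Of 14 genes known as targets of proneural factors, 12 were at least 2-fold higher in *Otx2*/*Crx* than in progenitor-marker cells, where 8.49% of all genes were, and 11 in cycling neurogenic-marker cells, where 4.60% were. Among the 12, the ratios of *Cbfa2t3*, 2.26 (0.637 to 6.64), and *St18*, 2.33 (0.828 to 5.79), had intervals that held 1. *Rnd2* was lower in *Otx2*/*Crx* cells, at a ratio of 0.701 (0.581 to 0.840). *Dcx*, which binds microtubules in young neurons, had 2 UMIs (0.783 CPM) in the cycling neurogenic-marker and 45 (2.69 CPM) in the progenitor-marker cells. Its ratio of 0.291 (0.0341 to 1.11) was not separated by counting error from equal levels. The medians over the 14, relative to the median gene, were 2.83 and 1.88 on the log2 scale. *Btg2*, which restrains division, was at 746 CPM against 43.6 CPM in progenitor-marker cells, and *Mfng*, a modifier of Notch, at 178 CPM against 23.6 CPM. In GFP+ cone-marker cells against *Otx2*/*Crx* cells, 6 of the 14 were at least 2-fold lower, where 16.7% of all genes were, and *Dcx* was at 49.8 against 2.27 CPM.

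The partners and inhibitors differed from the targets. The E protein gene *Tcf12* was at 154 CPM in GFP+ cone-marker cells and 66.7 CPM in GFP- *Otx2*/*Crx* cells, under 2-fold once centred. The other E protein genes were lower, *Tcf3* at 83.3 against 193 CPM and *Tcf4* at 120 against 146 CPM, and of the 8 genes of this list 6 were at least 2-fold lower, where 16.7% of all genes were. *Id1* and *Id3*, whose products hold E proteins in inactive dimers, were at 95.4 and 82.9 CPM in *Otx2*/*Crx* cells, below their 275 and 856 CPM in progenitor-marker cells. *Hes6*, an inhibitor of Hes1, was at 2615 CPM in *Otx2*/*Crx* cells and 284 CPM in progenitor-marker cells. In that comparison 4 of the 8, the *Id* genes, were at least 2-fold lower, where 13.3% of all genes were, and *Hes6* alone was higher, where 8.49% were.

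Of 15 other neural bHLH genes, 7 could be compared between *Otx2*/*Crx* and progenitor-marker cells, of which 5 were at least 2-fold higher, where 8.49% of all genes were, and 1 lower, where 13.3% were. *Nhlh2* was at 239 CPM in late and 41.4 CPM in early RGC-marker cells. *Tal2* had 156 UMIs in GFP+ cone-marker cells and 0 in GFP- *Otx2*/*Crx* cells.

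Genes whose levels were most like each member's were ranked by Pearson's r of log2(CPM + 1) over 9 groups of both libraries together, as a description over points that share libraries. Few stayed among the 3 most alike when the group of 7 cells was left out: *Susd6* and *Ercc1* for *Atoh7*, *Rbpj* and *Gabpb1* for *Olig2*, *Insm1* for *Neurod1*, *Gabpb1* for *Bhlhe22*, and *Ier5* and *Cldn5* for *Ptf1a*. None stayed for *Neurog2* and *Neurod4*. The first of these, for example, had an r of 0.978 with *Atoh7*, and *Insm1* 0.948 with *Neurod1*.

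Whether overlapping genes take or share reads of a member was not tested. *Neurod1* overlaps *Cerkl* on the same strand and *Gm26755* on the opposite one, and *Ptf1a* overlaps *Ptf1aos* on the opposite strand, all on chromosome 2. The other members overlap no gene of Gencode M21.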

How the data were processed

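The authors deposited UMI counts per gene and cell, made by Cell Ranger 2.1.1 (named in the submitters' processing notes) on mm10/GRCm38 from 3′ v2 droplet libraries, not normalized. The counts were used as deposited. Cells were kept by the study's limits, and the mitochondrial limit, printed there as a percentage, was read as a fraction. Scrublet (scanpy 1.11.5, expected rate 0.03) called 3 GFP+ and 55 GFP- doublets (0.0805% and 1.24%). The limits on cells had already removed all but 2 GFP+ ones, which were left in. So few calls in the GFP+ library mean that doublets there were hardly detected. Ratios were centred on the median gene with at least 10 UMIs, 0.5 being added to each sum. Positions come from Gencode M21 and windows from RefSeq (GRCm38.p6). Named genes were all members, the 3 genes most like each, and members of the lists given. The members, groups and lists were chosen with earlier results of these data known. Some genes of the lists are not reported here by name. The ratio intervals were tried on simulated Poisson counts, the model they assume, which left clustering of UMIs within cells untested. The 43 *Neurog2* UMIs of GFP+ *Otx2*/*Crx* cells, for example, came from 3 cells. Python 3.11.15, numpy 2.4.6, pandas 2.3.3, scipy 1.17.1 and edgeR 4.0.16 (R 4.3.3) were used.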

Additional observations from a re-analysis of the deposited data

How the results depend on the processing

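The direction of every gate ratio whose interval lay off 1 was the same without filters on cells and without the upper limit on genes. These settings gave equal ratios for each member, to the digits kept, and are in effect 1 check. The direction was also the same under TMM factors, as mean UMIs per cell and as means of per-cell values. The sizes changed. *Neurod4*, 19.9-fold higher, was 28.5-fold higher without the upper limit on genes and 9.40-fold as mean UMIs per cell. *Neurod1*, 11.9-fold higher, was 15.2-fold and 5.64-fold higher, and the *Neurog2* ratio of 0.0359 was 0.0535 and 0.0170. Members at least 2-fold lower in GFP+ cells numbered 3 to 5, the 5 as mean UMIs per cell. Ratios under that setting and under TMM factors were not centred on the median gene. Mean UMIs per cell were not scaled by depth, which differed between the libraries. Each of these settings multiplied every gate ratio by 1 common factor. The *Bhlhe22* ratio, 0.912 with an interval that held 1, was 1.12 without filters on cells or without the upper limit on genes. It was 0.727 under TMM factors, 0.431 as mean UMIs per cell and 0.847 as means of per-cell values. Leaving out called doublets tests nothing, since 2 were among the kept cells. *Neurog2* in *Otx2*/*Crx* cells (1616 CPM) was 1496 CPM with groups set on thinned cells and 1547 CPM as a mean of per-cell values. It was 1560 CPM with a marker limit of 5 UMIs, which left the limit of the *Otx2*/*Crx* group itself at 2 UMIs. *Olig2* was found in 46.8% of unthinned *Otx2*/*Crx* cells (31.5% thinned). The share of *Olig2* cells with *Neurog2* (88.7%) was 96.0% when 2 UMIs were asked for, 81.2% in a second draw and 97.1% within *Otx2*/*Crx* cells. Asking for 50 UMIs per gene gave 621 genes in place of 1134 in the *Otx2*/*Crx* comparison, 243 in place of 611 in the neurogenic one and 279 in place of 801 in the RGC one, since fewer genes were tested. Apart from these and from the common factors named above, the cause of the changes was not tested. Of the values for single members under all alternatives, 189 lay within the interval of the reported value and 103 outside it. Among the 189, 47 came from leaving out called doublets, which tests nothing. Among the 103, the 7 gate ratios without filters on cells repeat those without the upper limit on genes. No paired analysis was possible because there was 1 library per gate. The depth limits shares, and a count of 0 in a group has an interval that reaches above 0. For *Neurog2* in the 60 GFP+ *Otx2*/*Crx* cells with few cell-cycle UMIs, it reached 11.8 CPM, where 3 counts would be 9.57 CPM.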
